A study of Homo sapiens with 18 samples.

Results

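The comparison described here set EA.hy926 cells in which ELMO1 had been knocked down by small interfering RNA (siELMO1) against cells given a non-targeting siRNA (siNT), before any poly(I:C), a synthetic double-stranded RNA, was added. Its libraries were picked by their titles, which placed 3 siELMO1 and 3 siNT libraries at 0 h. They are 6 of the 18 RNA-sequencing libraries of the study. The comparison and the gene groups below were chosen with earlier results of these data known. The comparison covered the 15167 of 62754 annotated genes that were expressed. EA.hy926 is an established human line made by fusing umbilical vein endothelial cells with the lung carcinoma line A549. Both siRNAs were used at 10 nM, siELMO1 being a pool of 3 siRNAs against ELMO1, and the 0 h libraries came from cells 48 h after transfection that had spent the preceding night in low serum. The other 12 libraries were from cells given transfection reagent without siRNA (Mock) at 0 h and from all 3 treatments after 24 h of poly(I:C). Because each arm used 1 siRNA preparation, effects of losing ELMO1 and effects of the siRNA sequences themselves cannot be told apart here. The study describes the 3 libraries of a group as biological replicates, but whether they came from separate cultures or transfections was not stated. The p-values therefore measure the spread between libraries of a group, pooled over the conditions of all 18 libraries, and this spread may be technical.

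ELMO1 is an adaptor protein that binds DOCK1 and its relatives, and the complex loads the small GTPase RAC1 with GTP, through which it drives actin remodelling, cell migration and the engulfment of dying cells. In endothelial cells this module acts in sprouting and in survival. Among the other programmes described below, division genes are switched on late in G1 and in G2 by E2F and MuvB-containing complexes acting at short promoter elements, the antioxidant genes are switched on by NRF2 paired with a small MAF protein, and fibrillar and basement membrane collagens are assembled in the endoplasmic reticulum by a dedicated set of enzymes before export.

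The deposited values were estimated counts per gene, and they summed to 66009781, 59870252 and 65702160 in the siNT libraries and to 71127637, 40374756 and 50984532 in the siELMO1 libraries. Levels are given as CPM, counts scaled to a common library total after TMM scaling between libraries, in the order replicate 1, 2 and 3, and differences as the log2 fold change of siELMO1 over siNT with its standard error (SE) from edgeR's quasi-likelihood test over all genes, adjusted by Benjamini-Hochberg. Replicates correlated at 0.9914 or above on the log2 CPM scale within a group, and siNT with siELMO1 libraries at 0.962 to 0.969. Mitochondrially encoded RNA took 1.71 to 2.13% of the counts in siNT and 1.86, 4.02 and 3.95% in siELMO1, so siELMO1 replicates 2 and 3 stood apart from the other 4 libraries in this respect. Among the defining markers of the line's parents, 2 of 35 endothelial genes, FLT4 and TAL1, were at 0 in every 0 h library. Others, such as CDH5, PECAM1 and NOS3, were abundant, and the endothelial genes summed to 3107 to 3218 CPM in siNT. Of 26 epithelial genes, 8 were at 0, namely CDH1, KRT5, KRT14, NKX2-1, SFTPC, GRHL2, CEACAM6 and OVOL1. KRT8 and KRT18 were abundant, and the epithelial genes summed to 2076 to 2113 CPM in siNT. The leukocyte markers CD3E and TYROBP were at 0.

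The targeted transcript was lower in every siELMO1 library. ELMO1 (ENSG00000155849.16, chr7:36852906-37449223, minus strand) stood at 2.85, 2.66 and 3.32 CPM in siNT and 0.299, 0.301 and 0.419 CPM in siELMO1, with 3.04, 2.99 and 3.03 CPM in Mock. The groups did not overlap, and the log2 fold change was −3.11 (SE 0.28, adjusted p = 2.74e-08). At 24 h, in other libraries, it was −3.64. Among the annotated transcripts, ELMO1-201 carried 94.8% of the gene's estimated counts in siNT and 89.1% in siELMO1. ELMO1-AS1 lies on the other strand within the gene, and although the library kit keeps strand, whether the counting used it was not stated, so the values of such overlapping pairs are uncertain, here or for other genes with a partner on the opposite strand.

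Across the transcriptome, 1271 genes were higher and 943 lower in siELMO1 at an adjusted p under 0.05 and more than a 2-fold change, which were 8.38% and 6.22% of the genes tested and 14.6% together. By adjusted p alone, the rule used below for members of gene groups, 4750 genes were higher and 4752 lower, 31.3% and 31.3% of the genes tested, so a group in which about 3 in 10 members rose and about as many fell was like all genes. Most of those differences were small, with a median absolute log2 fold change of 0.58, and 4815 of them were under 1.5-fold. Changes of at least 4-fold numbered 196 upward and 153 downward. The 3 siELMO1 libraries lay wholly above the 3 siNT libraries for 4885 genes (32.2%) and wholly below for 5022 (33.1%), and 2144 of the 2214 genes called had no overlap. The median log2 fold change of all genes tested was 0.000932. Without siELMO1 replicate 2 the counts called were 1239 higher and 900 lower, and without replicate 3 they were 1239 and 913. Replicates 2 and 3 are the libraries that stood apart in mitochondrial RNA. Without siELMO1 replicate 1 the counts were 1336 higher and 1044 lower.

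**Figure D1:**
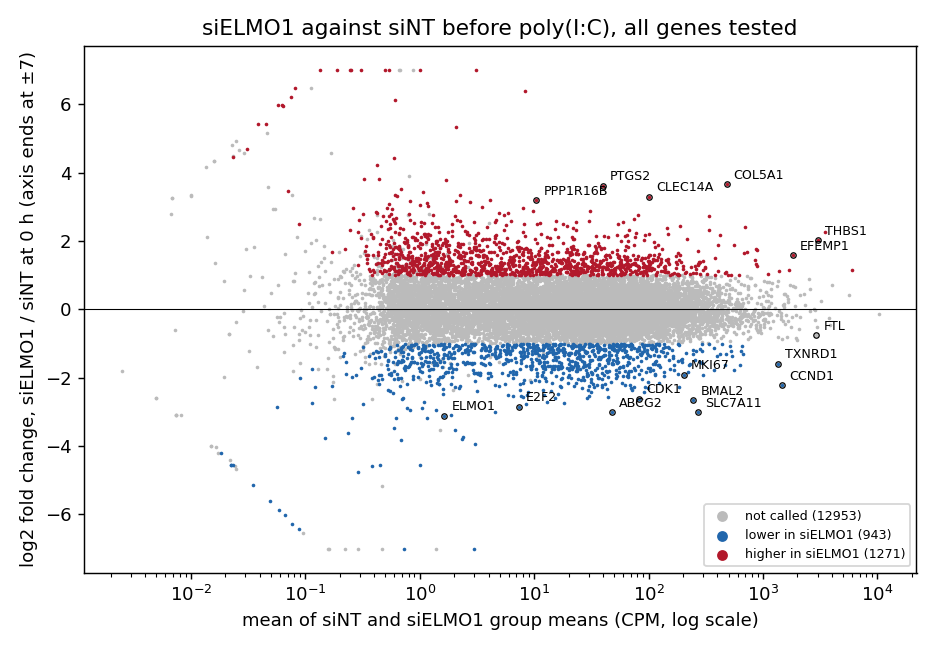
Log2 fold change of siELMO1 over siNT at 0 h (vertical axis, values past −7 or 7 drawn at the edge) against the mean of the 2 group means of each gene (horizontal axis, CPM, log scale). Red points are the 1271 genes that were higher and blue points the 943 that were lower among 15167 tested, and COL5A1 at 3.66 and SLC7A11 at −3.01 stand clear of most genes of like abundance.

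The protein-coding genes that were higher had a median exonic length of 5883 bases and those that were lower one of 4658 bases, beside 5436.5 bases over all protein-coding genes tested. Of 1862 long non-coding RNAs tested, 246 were higher (13.2%) and 121 lower (6.5%), and of protein-coding genes 7.74% and 6.14%. Summed over the genes that were higher, the level was 34190, 33910 and 34580 CPM in siNT and 84960, 97380 and 97390 CPM in siELMO1, and 57120 to 57550 CPM in Mock. Over the genes that were lower the sum was 57440 to 57920 CPM in siNT, 20330 to 21380 CPM in siELMO1 and 47770 to 48710 CPM in Mock. These genes were called on the difference between siNT and siELMO1 in the same libraries, so nothing is read from where Mock lies, and only Mock levels are set beside the values below.

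Among the leading rises were a collagen chain, a prostaglandin enzyme and an endothelial surface receptor. COL5A1, the alpha 1 chain of fibrillar collagen V (chr9:134641803-134844843, plus strand), stood at 73.7, 63.5 and 74.2 CPM in siNT and 903, 910.3 and 857 CPM in siELMO1. All siELMO1 values were above all siNT values, and the log2 fold change was 3.66 (SE 0.27, adjusted p = 2.30e-09). PTGS2, the inducible cyclooxygenase (chr1:186671791-186680922, minus strand), stood at 6.96, 4.85 and 6.15 CPM in siNT and 77.6, 77.9 and 65.7 CPM in siELMO1, again without overlap, and rose by 3.62 (SE 0.14, adjusted p = 6.28e-13). CLEC14A, a C-type lectin receptor of endothelial cells (chr14:38254000-38256093, minus strand), went from 18.8 ± 0.714 (SD, n = 3) CPM in siNT to 185 ± 12.7 (SD, n = 3) CPM in siELMO1, or 3.30 on the log2 scale. Mock averaged 121, 18.0 and 113 CPM for the 3 genes.

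MAF, a large basic leucine zipper transcription factor, was at 0.194, 0.378 and 0.120 CPM in siNT and 2.88, 3.69 and 3.02 CPM in siELMO1, and its log2 fold change of 3.79 was larger than that of COL5A1. RASGRP3, an exchange factor that activates RAS and RAP GTPases in endothelial cells, rose by 3.19 (SE 0.28, adjusted p = 1.71e-08), and PPP1R16B, a targeting subunit of protein phosphatase 1 that is abundant in endothelium, by 3.19 (SE 0.47, adjusted p = 1.06e-05). TCF7L1, a repressor of Wnt target genes, rose by 2.96, and SH2D3C, an adaptor of the CAS signalling proteins, by 2.82. Also among the 12 largest rises were SIGLEC15, a sialic acid-binding receptor (2.88), FSTL5, a follistatin-like secreted protein (2.88), KCNMB4, a regulatory subunit of the large-conductance potassium channel (2.81), and PCDHGB2, a gamma protocadherin (2.99). PCDHGB2 shares its locus and its last exons with the other gamma protocadherins, and without siNT replicate 3 its log2 fold change was 4.05. RAB4B-EGLN2, a read-through transcript, had the largest value of these, 6.39, but its parents RAB4B (0.31, adjusted p = 0.196) and EGLN2 (0.11, adjusted p = 0.191) did not pass (0.48 and 0.19 without siELMO1 replicate 3, where both passed), its counts depend on how reads of the shared exons were assigned, and without siNT replicate 1 the value was 7.67.

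By the size of the change in CPM, which weighs abundant RNAs, THBS1 and EFEMP1 were among the 5 largest rises together with the mitochondrial MT-RNR2 (1.15) and MT-CO1 (0.72). Thrombospondin 1 (THBS1), a matrix protein that restrains angiogenesis, stood at 1235, 1125 and 1223 CPM in siNT and 4593, 5007 and 4995 CPM in siELMO1. It rose by 2.03 (SE 0.12, adjusted p = 1.02e-10), and EFEMP1, a fibulin, by 1.59. TPM4, a tropomyosin of the actin cytoskeleton, was at 222, 217 and 222 CPM in siNT and 1045, 1249 and 1253 CPM in siELMO1, a difference of 2.42. Its mean in Mock was 1015 CPM.

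On the falling side the leading genes were a cystine transporter, a drug efflux pump and regulators of cell division. SLC7A11, the cystine importer that feeds glutathione synthesis (chr4:138164097-138242349, minus strand), stood at 508, 464 and 478 CPM in siNT and 61.9, 57.2 and 61.2 CPM in siELMO1, with no overlap. It fell, with a log2 value of −3.01 (SE 0.11, adjusted p = 2.33e-13). ABCG2, an efflux pump for drugs and urate, was at 82.8, 87.5 and 83.3 CPM in siNT and 11.2, 9.12 and 10.9 CPM in siELMO1, a log2 fold change of −3.02, and Mock averaged 22.6 CPM, between the groups. OIP5, which loads the centromeric histone, fell by 2.99, E2F2, an activating E2F factor, by 2.85, PKMYT1, the membrane-bound inhibitory kinase of CDK1, by 2.73, and PBK, a mitotic kinase, by 2.58 on the log2 scale.

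CDK1, the kinase that starts mitosis (chr10:60778331-60794852, plus strand), stood at 141, 146 and 141 CPM in siNT and 24.4, 23.4 and 22.3 CPM in siELMO1. It fell by 2.61 on the log2 scale. LIFR, the receptor for leukaemia inhibitory factor, changed by −2.70 (SE 0.21, adjusted p = 3.21e-09), and BMAL2, a partner of the circadian factor CLOCK, by −2.65 (SE 0.12, adjusted p = 2.78e-12). DLEU2, a long non-coding RNA whose introns host the microRNAs MIR15A and MIR16-1, fell by 2.78 and SMIM13, a small membrane protein, by 2.60. NPEPPSP1, a pseudogene of an aminopeptidase, had the largest fitted fall of these, −3.93, but it shares sequence with its parent gene, and the other siELMO1 libraries than replicate 1 were at 0, so that the value without that library, −11.4, is a fitted one that measures no size, and the gene did not pass without siNT replicate 3 (−3.80), siELMO1 replicate 2 (−3.46) or siELMO1 replicate 3 (−3.40), or with DESeq2 (−4.14). By the change in CPM the largest falls were of cyclin D1 (CCND1, described below), FTL, the light chain of ferritin (−0.75), TXNRD1, thioredoxin reductase (−1.59), and the glycolytic enzymes GAPDH (−0.47) and LDHA (−0.91).

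**Figure D2:**
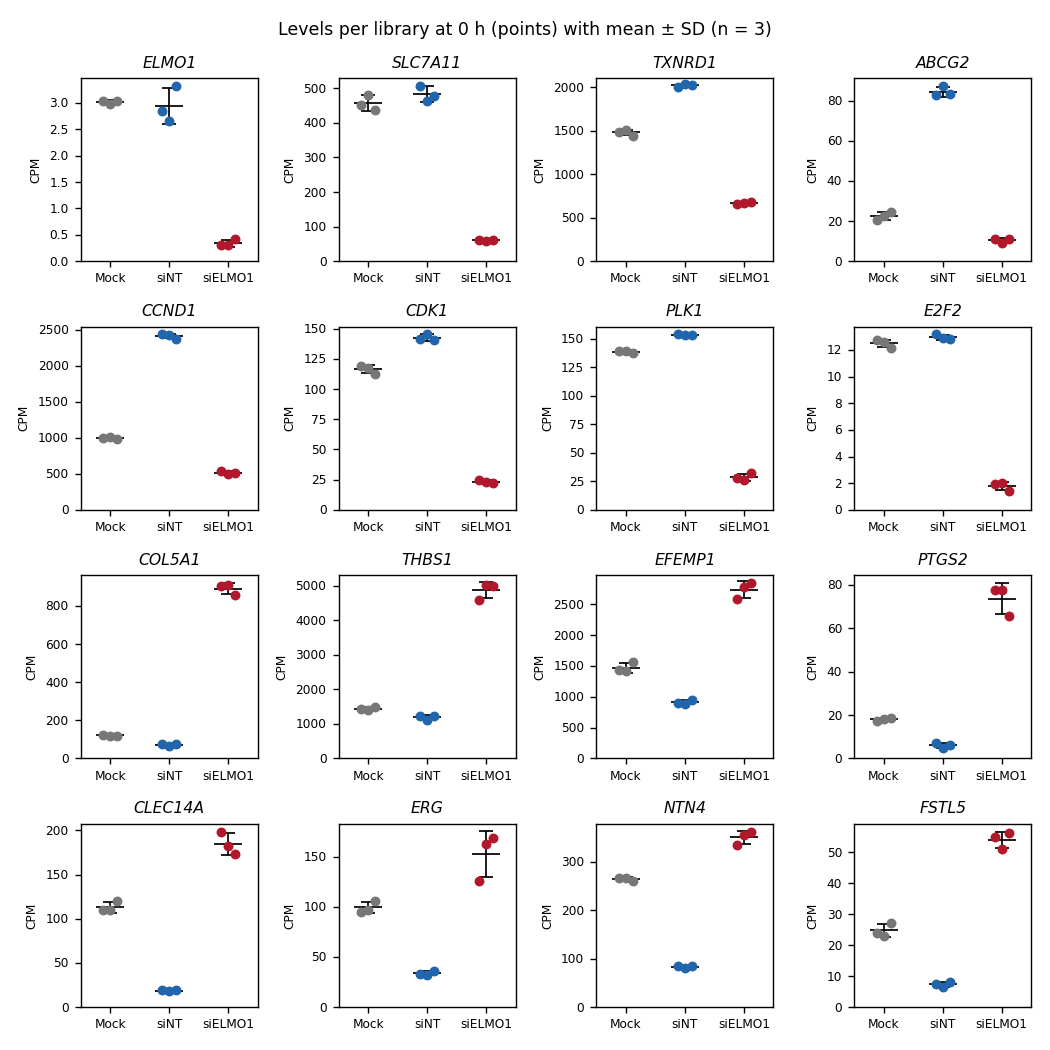
Level in each 0 h library (CPM, linear axis from 0) of ELMO1 and of leading genes in each direction; points are single libraries of Mock, siNT and siELMO1, and lines are the mean with the SD of 3 libraries. The siELMO1 points lie wholly above the siNT points for COL5A1, PTGS2 and CLEC14A and wholly below them for ELMO1, SLC7A11 and CDK1, and Mock lies between the groups for ABCG2 and CDK1.

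The mitotic genes fell as a block. Of 76 tested genes of the G2 and M phases, all 76 fell, 71 of them by more than 2-fold, with a median log2 fold change of −1.76 beside 0.000932 over all genes. Besides CDK1, PLK1, the kinase of mitotic entry and spindle assembly, stood at 154, 153 and 153 CPM in siNT and 27.6, 25.9 and 32.0 CPM in siELMO1. It changed by −2.43 (SE 0.11, adjusted p = 4.00e-12). CDC20, the activator of the anaphase-promoting complex, was at 165, 163 and 167 CPM in siNT and 36.6, 31.3 and 32.1 CPM in siELMO1, with no overlap, and fell by 2.30. CCNB2, a mitotic cyclin, fell by 1.65 and UBE2C, the ubiquitin-conjugating enzyme that works with CDC20, by 2.36. The smallest falls of the group were those of INCENP (−0.44), CENPF (−0.48) and BUB3 (−0.58). MKI67, the proliferation antigen, stood at 359, 303 and 302 CPM in siNT and 65.9, 94.1 and 97.5 CPM in siELMO1. It fell by 1.91. Summed over the group, the level was 8179, 8041 and 8056 CPM in siNT, 2584, 2692 and 2788 CPM in siELMO1 and 8978 to 9303 CPM in Mock, so that Mock lay above siNT here. In RNA from whole cultures, fewer dividing cells and less of these RNAs per cell cannot be told apart.

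The DNA replication genes fell almost as completely, 54 of 57 with a median log2 fold change of −1.39 and none that rose. DSCC1, which helps load the replication clamp, changed by −2.54 (SE 0.14, adjusted p = 4.04e-11), ASF1B, a histone chaperone of S phase, by −2.52, MCM10, which starts origin firing, by −2.35, and RFC3, a clamp loader subunit, by −2.0. The helicase subunits MCM2 (−1.64), MCM3 (−0.98) and MCM5 (−1.39) and the clamp PCNA (−1.23) also fell. The 3 members that did not pass were RFC1 (−0.10, though it passed at −0.17 without siELMO1 replicate 3), ORC5 (−0.10) and TIMELESS (0.0054). The summed level was 4412 to 4484 CPM in siNT and 1779 to 1912 CPM in siELMO1. Among 35 genes of DNA repair, most of which also serve replication, 28 fell and 2 rose, with a median of −1.08; the steepest falls were FANCB and FANCD2 of the Fanconi anaemia pathway (−2.46 and −2.17), RAD51AP1 (−2.25), EXO1 (−2.24) and POLQ (−2.21), and the 2 that rose were the damage kinase ATM (0.89) and XRCC1 (0.36).

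Regulators of the G1 to S transition fell for the most part, 24 of 32, while 3 rose, with a median of −0.83. CCND1, cyclin D1, the growth factor-responsive partner of CDK4 and CDK6, stood at 2441, 2423 and 2375 CPM in siNT and 540.4, 496 and 517 CPM in siELMO1. It changed by −2.22 (SE 0.05, adjusted p = 1.07e-15). SKP2, the ubiquitin ligase subunit that removes the CDK inhibitor p27, was at 52.6, 52.1 and 54.6 CPM in siNT and 10.3, 9.77 and 9.51 CPM in siELMO1, with no overlap and a log2 fold change of −2.42. E2F1 fell by 1.37 beside 2.85 for E2F2, and CDKN2C, an inhibitor of CDK4 and CDK6, fell as well, by 2.19. The members that rose were RBL2 (0.53), the pocket protein of resting cells, and, by small amounts, CDK6 (0.21) and CCNE1 (0.26). CDK6 no longer passed without siNT replicate 2 (0.19), siNT replicate 3 (0.19) or siELMO1 replicate 2 (0.17), nor CCNE1 without siNT replicate 3 (0.20) or siELMO1 replicate 3 (0.25). The inhibitors that mark many arrested cells were lower in siELMO1, CDKN1A (p21) by 0.78 from 334 ± 8.96 (SD, n = 3) CPM in siNT to 194 ± 9.80 (SD, n = 3) CPM in siELMO1 and CDKN1B (p27) by 1.03 from 94.4 ± 3.10 (SD, n = 3) CPM in siNT to 46.3 ± 2.37 (SD, n = 3) CPM in siELMO1.

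The promoters of the fallen genes are shown because members of a group moved together, and with them the elements through which such genes are commonly controlled. Sequences are from RefSeq on GRCh38.p14, taken from windows of 250 bases before to 50 after the start of each gene, read 5′ to 3′ on the strand of the gene. The mitotic genes were searched on both strands for the CHR element (TTTGAA or TTCGAA), bound by MuvB complexes, and for the CCAAT box (CCAAT), bound by NF-Y; capitals mark these matches.
PLK1, chr16:23678801-23678880, plus strand: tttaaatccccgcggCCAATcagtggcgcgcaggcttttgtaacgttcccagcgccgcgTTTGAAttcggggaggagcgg
CDK1, chr10:60778155-60778200, plus strand: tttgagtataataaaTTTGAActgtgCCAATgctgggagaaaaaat
CDC20, chr1:43358866-43358945, plus strand: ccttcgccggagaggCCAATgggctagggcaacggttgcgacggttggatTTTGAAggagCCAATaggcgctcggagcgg
CCNB2, chr15:59105011-59105137, plus strand: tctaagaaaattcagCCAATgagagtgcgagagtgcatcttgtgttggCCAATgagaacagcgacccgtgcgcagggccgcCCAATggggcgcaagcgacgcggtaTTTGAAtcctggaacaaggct

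A CHR match was present in 43 of the 63 fallen mitotic genes that had a promoter in the table, or 68.3%, against 8.89% of fallen replication genes (4 of 45), 22.9% of all genes called lower, 11.4% of genes called higher, 11.5% of genes tested and 16.6% of all promoters. The share with a CCAAT box was 73% of the mitotic genes, 60% of the replication genes, 37.1% of genes tested and 35.7% of all promoters, and 54% of the mitotic genes held both elements against 4.93% of the genes tested. The replication genes were searched for the E2F elements TTCCCGCC or TTTGGCGC, neither of which contains a CHR or CCAAT run, and 37.8% (17 of 45) held one, against 12.7% of the mitotic genes, 12.2% of genes called lower, 4.72% of genes called higher, 6.12% of genes tested and 3.81% of all promoters. A match is a run of letters in the window and does not show that a factor was bound. Capitals mark an E2F match in the windows of E2F2 and, read from the opposite strand, of MCM3.
E2F2, chr1:23531253-23531290, minus strand: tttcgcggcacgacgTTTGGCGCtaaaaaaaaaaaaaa
MCM3, chr6:52284744-52284781, minus strand: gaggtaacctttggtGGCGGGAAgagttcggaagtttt

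Histone genes were mixed, 8 of 17 having fallen and 5 risen. The libraries were made with an mRNA kit, and how fully it captured histone RNA that is not polyadenylated was not tested. H2AZ1 (−1.88) and H2AX (−1.62), which are expressed with the cell cycle and carry polyadenylated RNA, fell, while H2BC5 (2.04) rose. Targets of p53 were mixed as well, 9 of 29 having risen and 13 fallen, with XPC (1.55) and BBC3 (0.80) above and GADD45A (−0.81) below. Ribosome biogenesis factors fell in 19 of 29 cases and rose in 5 (3 without siNT replicate 2 or siELMO1 replicate 2), by small amounts, the median being −0.23, and the exception was NOLC1 (2.22), a nucleolar chaperone at 51.5, 51.7 and 52.8 CPM in siNT and 207, 262 and 257 CPM in siELMO1.

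Antioxidant and glutathione genes were the other large block that fell. Of 52 tested genes of glutathione metabolism and the NRF2 response, 34 fell and 7 rose, with a median log2 fold change of −0.56, and their summed level was 16870 to 17260 CPM in siNT, 9537 to 10110 CPM in siELMO1 and 13670 to 13730 CPM in Mock. Beyond SLC7A11, TXNRD1 was at 2003, 2039 and 2025 CPM in siNT and 664, 671 and 676 CPM in siELMO1, with no overlap and a change of −1.59 (SE 0.09, adjusted p = 3.84e-11), and its substrate thioredoxin (TXN) changed by −1.84 (SE 0.07, adjusted p = 4.90e-13). NQO1, a quinone reductase and a standard readout of NRF2, stood at 679.9, 732 and 704 CPM in siNT and 249, 212 and 219.7 CPM in siELMO1. It fell by 1.64. OSGIN1, an oxidative stress-induced growth inhibitor, fell by 2.01, SRXN1, sulfiredoxin, by 1.59 and GSR, glutathione reductase, by 1.5.

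The 2 subunits of the enzyme that limits glutathione synthesis, GCLM (−1.38) and GCLC (−0.45), fell, as did HMOX1, haem oxygenase 1 (−0.81). NFE2L2, which encodes NRF2 itself, changed by −0.36 (SE 0.05, adjusted p = 1.67e-05), and KEAP1, its cytoplasmic inhibitor, by −0.45 (SE 0.06, adjusted p = 3.52e-06). The members that rose included MAFF, a small MAF protein (1.29), PRDX4, the peroxiredoxin of the endoplasmic reticulum (1.25), and ME1, malic enzyme (0.99). Of the other small MAF genes, MAFG (0.057) and MAFK (0.19) did not pass, MAFK passing at 0.32 without siELMO1 replicate 3. The core of the antioxidant response element, TGACNNNGC on either strand, was present in 24% of the fallen members with a promoter in the table (6 of 25), against 15.2% of the genes tested and 13.6% of all promoters, a difference of few promoters. Capitals mark the match in 2 of them, read from the opposite strand in GCLM.
TXNRD1, chr12:104215665-104215703, plus strand: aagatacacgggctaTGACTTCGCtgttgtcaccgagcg
GCLM, chr1:93909441-93909479, minus strand: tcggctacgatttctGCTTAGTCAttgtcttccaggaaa

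Nuclear and mitochondrially encoded genes of energy metabolism had medians of opposite sign. Of 41 nuclear genes of the respiratory chain and ATP synthase, 29 fell and 5 rose, with a median of −0.34; NDUFA2 (−0.90), COX8A (−0.85) and ATP5MC3 (−0.79) were among the falls, and 3 of the rises remained without siELMO1 replicate 1. Of 15 genes encoded in mitochondrial DNA, 10 rose and 1 fell, with a median of 0.73. MT-ND1, a complex I subunit, was at 454, 598 and 513 CPM in siNT and 549.8, 1597 and 1640.0 CPM in siELMO1. It changed by 1.27 (SE 0.26, adjusted p = 3.17e-04), and MT-CO1, a cytochrome oxidase subunit, was at 2527, 3430.0 and 3168 CPM in siNT and 2768, 5983 and 6257 CPM in siELMO1. The groups overlapped for both genes, siELMO1 replicate 1 being the lowest of its group, as was its share of mitochondrial RNA, and MT-CO1 no longer passed without siELMO1 replicate 3 (0.53). Without siELMO1 replicate 2 or without replicate 3, 6 of the genes rose in place of 10, and MT-RNR1 (−0.38), the one that fell, was lost without siNT replicate 2. The share of counts on ribosomal RNA genes, the mitochondrial ones included, was 0.395 to 0.468% in siNT and 0.577 to 1.04% in siELMO1. It therefore overlaps the genes above, and the part of cytosolic ribosomal RNA in these differences was not tested. Glycolysis and hypoxia genes fell in 19 of 35 cases and rose in 7, with a median of −0.35, PFKL (1.46) and PFKFB3 (1.14) standing among the rises against LDHA (−0.91) and NDRG1 (−0.92).

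Collagen genes rose. Of 17 tested collagen chains, 12 rose and none fell, with a median log2 fold change of 0.86, and their summed level was 757.4 to 832.1 CPM in siNT, 2778 to 2871 CPM in siELMO1 and 1136 to 1150 CPM in Mock. COL5A2, the partner chain of COL5A1 in collagen V, stood at 155, 145 and 161 CPM in siNT and 694, 686 and 704 CPM in siELMO1. It rose by 2.18 (SE 0.06, adjusted p = 1.23e-14). COL4A1, a chain of the basement membrane collagen, was at 23.6, 21.6 and 24.1 CPM in siNT and 104, 103 and 101 CPM in siELMO1, with no overlap, and its partner COL4A2, which shares its promoter region, rose by 1.14. COL13A1, a transmembrane collagen, rose by 2.35 and COL8A1, a short-chain collagen of vessel walls, by 1.52. The 5 that did not pass were COL7A1 (−0.62), COL9A3 (−0.24), COL15A1 (−0.13), COL16A1 (−0.039) and COL18A1 (0.00093).

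The enzymes and chaperones that mature collagen followed with smaller values, 15 of 23 having risen and 2 fallen, with a median of 0.46. P4HA3, a catalytic subunit of prolyl 4-hydroxylase, changed by 1.94 (SE 0.24, adjusted p = 1.30e-06), PLOD1, a lysyl hydroxylase, by 1.23 (SE 0.07, adjusted p = 4.15e-11) and P4HB, the shared subunit and disulfide isomerase, by 1.01 (SE 0.04, adjusted p = 6.68e-13). SERPINH1, the collagen chaperone HSP47, rose by 0.60, whereas PCOLCE, an enhancer of procollagen processing, fell by 1.36. PCOLCE2 passed at −0.25 with all libraries but not when any one of the 6 was left out (−0.21 to −0.28). Chaperones and translocation factors of the endoplasmic reticulum also rose in 17 of 26 cases and fell in 4 (2 without siELMO1 replicate 2), with a median of 0.45; DNAJC3 (1.34), HSP90B1 (1.12) and CREB3L2 (1.10), a factor that drives secretory capacity, rose, and the translocon subunit SEC61A1 (−1.18) fell.

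Basement membrane and microfibril genes rose in 17 of 25 cases and fell in 6, with a median of 0.68. LTBP1, which holds latent TGF-beta in the matrix, was at 16.4, 12.3 and 20.0 CPM in siNT and 84.9, 88.8 and 100.4 CPM in siELMO1. It rose by 2.49 (SE 0.30, adjusted p = 1.11e-06). BGN, biglycan, rose by 2.04, LAMA4, the laminin alpha chain of vessels, by 1.74, MMRN1, multimerin of endothelium and platelets, by 1.5 and FN1, fibronectin, by 0.92. Another laminin alpha chain of vessels went the other way: LAMA5 stood at 856, 719 and 748 CPM in siNT and 344, 294 and 272 CPM in siELMO1, with no overlap, and fell by 1.35. Its level in Mock averaged 282 CPM, near that of siELMO1. Matrix proteases and their inhibitors were mixed, 11 of 26 having risen and 9 fallen, with MMP2 (1.76) and its activator MMP14 (1.36) among the rises.

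Receptors that hold cells to this matrix and to each other were more often higher than lower. Of 16 integrin genes, 9 rose and 2 fell, with a median of 0.68. ITGB8, the beta subunit that activates latent TGF-beta, changed by 2.14 (SE 0.20, adjusted p = 3.22e-08), ITGB3, of the vitronectin receptor, by 1.58 (SE 0.08, adjusted p = 1.86e-11) and ITGA6, of the laminin receptors, by 1.10 (SE 0.05, adjusted p = 1.44e-12). ITGA5 (0.83) and ITGB1 (0.82), which make up the fibronectin receptor, rose together, and ITGAE (−0.81) and ITGB5 (−0.29) fell. Among 15 cadherins 8 rose and 2 fell, with PCDH10 (1.42), PCDH1 (1.27) and N-cadherin (CDH2, 0.99) above; VE-cadherin (CDH5), which closes endothelial junctions, was at 445, 419 and 451 CPM in siNT and 758, 771 and 801 CPM in siELMO1. It rose by 0.83.

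The clustered protocadherins, adhesion molecules encoded in tandem arrays on chromosome 5, rose in 18 of 21 tested cases and fell in none. Their median log2 fold change was 1.68, and 1.67 with PCDHGC4, whose siNT libraries were at or under 3 counts, placed at its bound. PCDHGA1 (2.67), PCDHGA4 (2.54) and PCDHGB7 (3.15, or 3.99 without siNT replicate 3) stood with PCDHGB2 at the top of the range. All of these are scarce RNAs that share 3′ exons within the gamma cluster, so their counts depend on how reads were divided among them. Tight and gap junction genes were evenly split, 8 of 21 up and 8 down, from F11R (1.15) to CGN (−0.99).

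**Figure D3:**
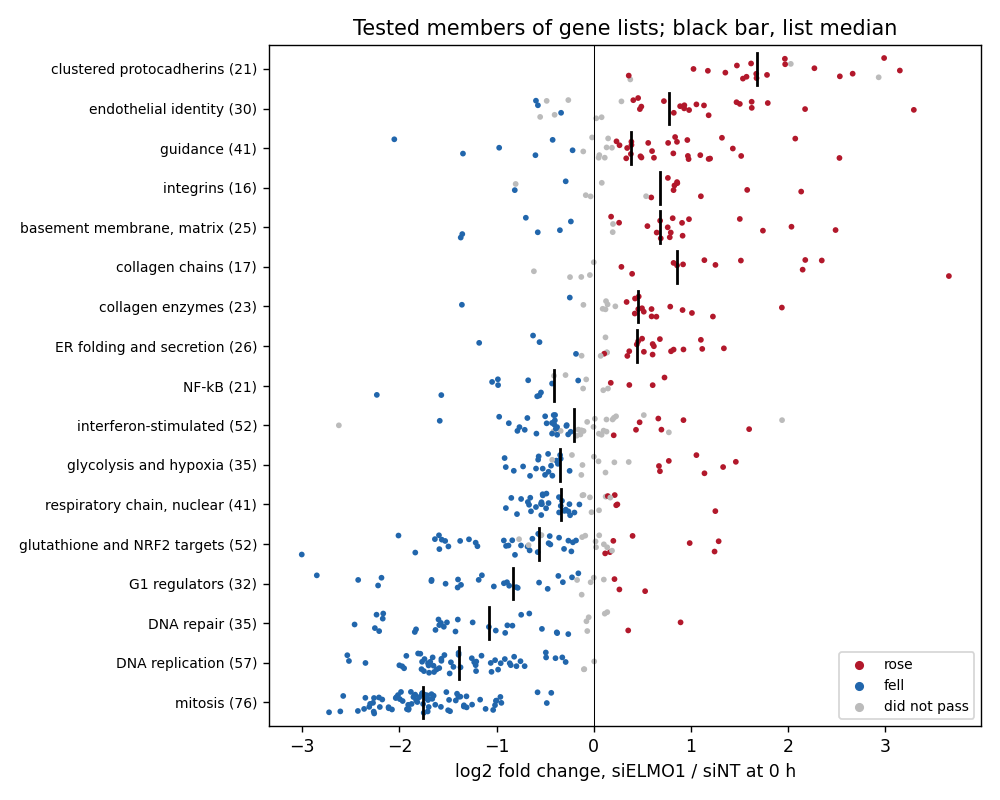
Log2 fold change of siELMO1 over siNT at 0 h for each tested member of selected gene groups (points; red rose, blue fell, grey did not pass), with the number tested in parentheses and the group median as a black bar. All 76 members of the mitosis group are blue and lie left of 0, and of the 17 collagen chains 12 are red and none is blue.

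Endothelial identity genes rose in 20 of 30 cases and fell in 3, with a median of 0.77, and their summed level was 3107 to 3218 CPM in siNT, 4312 to 4432 CPM in siELMO1 and 3574 to 3724 CPM in Mock. ERG, the transcription factor that maintains endothelial fate, stood at 33.3, 31.8 and 35.9 CPM in siNT and 126, 163 and 169 CPM in siELMO1. It rose by 2.18 (SE 0.11, adjusted p = 2.09e-11). VWF, the platelet-binding glycoprotein stored in endothelial granules, was at 3.68, 4.16 and 3.50 CPM in siNT and 13.0, 13.0 and 13.3 CPM in siELMO1, with no overlap, and rose by 1.79. KDR (1.63) and FLT1 (1.47), receptors of the VEGF ligands, TEK (1.14), the angiopoietin receptor, APLN (1.63), a peptide of sprouting tips, and ROBO4 (1.18) rose as well. The 3 that fell were FLI1 (−0.59), EGFL7 (−0.57) and NOS3, nitric oxide synthase (−0.34), and PECAM1, the adhesion molecule CD31, at −0.48 (adjusted p = 0.0688) did not pass. With only the 9 libraries at 0 h in the edgeR fit 6 members fell, PECAM1 among them at −0.49 (adjusted p = 0.000986).

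Markers of other cell types were read from the same libraries. Of 8 epithelial markers tested 2 rose, KRT8 (0.55) and MUC1 (1.61), and 1 fell, KRT80 (−0.71), with summed levels over the list of 2076 to 2113 CPM in siNT and 2242 to 2362 CPM in siELMO1. The number that rose was 4 with only the 9 libraries at 0 h in the fit, and KRT18 (0.15 here) passed with DESeq2 and limma-voom at 0.15 each. Of 9 mesenchymal markers 6 rose, among them VIM, vimentin (0.42), FAP (1.29) and ZEB2 (0.78), and 2 fell, S100A4 (−1.54) and TWIST2 (−0.59), of which 1 remained without siNT replicate 1 or 3 or siELMO1 replicate 1 or 2, or with only the 0 h libraries, the sums being 4983 to 5148 and 6578 to 7028 CPM. Of the leukocyte markers 3 were tested and 1 rose, CD68 (1.19), a lysosomal protein also found in other cells, and the sums were 37.8 to 43.2 and 69.2 to 102 CPM with PTPRC, the pan-leukocyte marker, at 0.164 CPM or less. The part of these markers in the endothelial and matrix values was not tested.

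Genes of blood clotting and platelet control rose in 15 of 25 cases and fell in 6. F3, tissue factor, rose by 1.28 (SE 0.19, adjusted p = 1.50e-05) and TFPI2, an inhibitor of its pathway, by 2.25 (SE 0.14, adjusted p = 2.19e-10). PTGIS, which turns the product of PTGS2 into prostacyclin, rose by 1.46 and F2R, the thrombin receptor, by 1.42, while the plasminogen activator PLAU (−0.83) and its inhibitor SERPINB2 (−1.60) fell. Guidance ligands and receptors rose in 27 of 41 cases and fell in 6, with a median of 0.39. EFNA1, an ephrin, changed by 2.53 (SE 0.32, adjusted p = 1.97e-06) and NTN4, a netrin of vessel basement membranes, by 2.08 (SE 0.06, adjusted p = 1.49e-14), against UNC5B, a netrin receptor, at −2.05 (SE 0.38, adjusted p = 1.32e-04). Leukocyte adhesion molecules rose in 7 of 10 cases without a fall, among them SELP (0.87) and ICAM1 (0.51).

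ELMO1 and its partners, taken as 1 group, were mixed, 9 of 26 having risen and 13 fallen. The 26 and the 13 include ELMO1, the gene targeted by the siRNA. DOCK1, the exchange factor that ELMO1 binds, stood at 59.7, 52.9 and 62.5 CPM in siNT and 132, 143 and 151 CPM in siELMO1. It rose by 1.28 (SE 0.06, adjusted p = 5.52e-12). DOCK6 rose by 1.20 and RAC1, the GTPase that the complex activates, by 0.63 from 181 ± 2.49 (SD, n = 3) CPM in siNT to 281 ± 23.6 (SD, n = 3) CPM in siELMO1. CYFIP1, a subunit of the WAVE complex downstream of RAC1, was at 291, 279.9 and 287 CPM in siNT and 101, 105 and 106 CPM in siELMO1. It fell by 1.46. The paralog ELMO2, at 67.9, 67.7 and 73.3 CPM in siNT and 76.7, 75.7 and 79.2 CPM in siELMO1, changed by 0.15 (SE 0.05, adjusted p = 0.0134), and ELMO3, at 1.63, 2.07 and 1.75 CPM in siNT and 1.38, 1.10 and 0.939 CPM in siELMO1, by −0.67 (SE 0.25, adjusted p = 0.0301). Both were borderline: ELMO2 did not pass without siNT replicate 1, siNT replicate 2 or siELMO1 replicate 3 (each 0.13), and ELMO3 did not pass without siNT replicate 2 (−0.56), siELMO1 replicate 2 (−0.64) or siELMO1 replicate 3 (−0.54), or with only the 9 libraries at 0 h (−0.67).

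Among small GTPases, RHOBTB1 (1.82), RHOJ, a GTPase of endothelial cells (1.17), and RHOB (0.68) rose, while CDC42 (−0.82) and RHOF (−1.19) fell and RHOA (0.037) did not pass. Actin genes regulated by SRF rose in 9 of 15 cases and fell in 2; after TPM4 the largest values were those of ACTA2, smooth muscle actin (1.94), MYH9, non-muscle myosin (1.33), and TPM1 (1.04), and VCL, vinculin (−0.44), fell. YAP targets were split, 11 of 22 up and 8 down (5 without siELMO1 replicate 1), with CCN1 (1.17) and CCN2 (0.59) above and AXL (−1.32) below. Of the 4 NADPH oxidase genes tested, NOX4, the oxidase of endothelial cells, rose by 1.67 (SE 0.11, adjusted p = 3.28e-10) and NOX1 fell by 1.51.

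In the TGF-beta and BMP pathway 16 of 31 genes rose and 8 fell. The ligand INHBA, activin A, was at 27.1, 29.9 and 25.2 CPM in siNT and 89.9, 109 and 100.0 CPM in siELMO1. It rose by 1.86, and the BMP antagonists GREM1 (2.84) and NOG (1.58) rose too. TGFB1 rose by 0.92, and the BMP mediator SMAD5 (−1.36) and the BMP target ID2 (−1.85) fell, while ID3 (1.11) rose. BMP2 was at or under 3 counts in each siNT library, and no fold change is given for it. In the Notch pathway 8 of 19 rose, including the endothelial receptor NOTCH4 (1.93) and ligand DLL4 (1.01), and 6 fell, including JAG1 (−0.81) and the modifier LFNG (−1.24). In the Wnt pathway 10 of 23 rose, with WNT9A (1.84) and WNT5A (1.54) following TCF7L1, and 6 fell, with the receptor FZD4 (−0.78) and the negative regulator ZNRF3 (−0.87) among them.

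Before poly(I:C) was added, the genes that sense and answer double-stranded RNA differed modestly in their medians. Both arms had been given siRNA, itself double-stranded, 48 h earlier, and the study counts this as a first stimulus of the receptor TLR3. The values are therefore not those of unstimulated cells. Of 52 interferon-stimulated genes 23 fell and 7 rose, with a median of −0.21. OAS3, a sensor that activates RNase L, was at 75.2, 69.4 and 73.0 CPM in siNT and 25.2, 24.0 and 23.4 CPM in siELMO1. It fell by 1.58, OAS1 fell by 0.87 and GBP1, a guanylate-binding protein, by 0.97, while IFI44 rose by 0.92. Among 21 genes of double-stranded RNA sensing, 4 rose and 10 fell. TLR3, the endosomal receptor for poly(I:C), stood at 21.9, 26.4 and 26.0 CPM in siNT and 19.9, 18.9 and 21.1 CPM in siELMO1. It changed by −0.31 (SE 0.11, adjusted p = 0.0246), but did not pass without siNT replicate 2 (−0.26), siNT replicate 3 (−0.27), siELMO1 replicate 1 (−0.31) or siELMO1 replicate 2 (−0.27), or with limma-voom (−0.30). The cytosolic sensors went apart, RIGI by 0.67 (SE 0.11, adjusted p = 5.74e-05) and IFIH1 (MDA5) by −0.39 (SE 0.12, adjusted p = 0.0106), which was lost without siELMO1 replicate 3 (−0.29) and with limma-voom (−0.39), and the signalling proteins TRAF3 (1.20) and IKBKE (0.95) rose.

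NF-kB pathway genes fell in 11 of 21 cases and rose in 4, with a median of −0.41. BIRC3, an inhibitor of apoptosis induced by NF-kB, was at 3.30, 4.69 and 3.32 CPM in siNT and 0.885, 0.603 and 0.839 CPM in siELMO1. It fell by 2.23, TRAF1 fell by 1.57 and TNFAIP3 (A20), a feedback inhibitor, by 0.98. Of 32 cytokine genes tested 10 fell and 3 rose, and 5 were at or under 3 counts in both groups. CXCL8, at 20.9, 19.7 and 21.5 CPM in siNT and 19.4, 18.7 and 15.5 CPM in siELMO1, did not pass at −0.21 (SE 0.11, adjusted p = 0.106), and CXCL2 fell by 1.30. TNFSF4, the OX40 ligand of endothelial cells, at 0.0897, 0.0987 and 0.135 CPM in siNT and 1.18, 1.16 and 1.42 CPM in siELMO1, and TNFSF15 (1.58) rose.

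Genes of cell death and survival were split, 12 of 36 up and 15 down. Of the pro-death BH3 proteins BMF (1.52) rose and PMAIP1 (−0.79) fell, and of the survival proteins BCL2L1 (0.73) rose and MCL1 (−0.72) fell. Amino acid and ATF4 genes were even, 14 of 37 up and 15 down, with SHMT2 (−2.15), the mitochondrial serine enzyme, and SLC7A5 (−1.33), a neutral amino acid transporter, among the falls. Cholesterol genes, 12 of 37 in each direction, were led upward by the efflux pumps ABCA1 (1.66) and ABCG1 (1.55) and downward by IDI1 (−1.02) and HMGCS1 (−0.89) of the synthetic pathway. Lysosome and autophagy genes, 15 of 42 up and 19 down, included the factor TFEB (1.75) among the rises and SQSTM1 (−1.55), the autophagy receptor p62 and an NRF2 target, among the falls.

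Regulatory genes outside these pathways moved as well. Of the immediate early genes and their feedback inhibitors 15 of 27 fell and 6 rose; FOSL1 fell by 1.53, the ERK phosphatase DUSP5 by 1.52 and SPRY1 by 1.18, while FOSB (2.24) and FOS (1.20) rose. Of genes tied to quiescence 9 of 20 rose, led by MXD4 (1.14), PIK3IP1 (0.98) and TXNIP (0.77), and 7 fell, led by KLF2 (−0.74), the flow-responsive endothelial factor. In the circadian clock 9 of 17 fell and 3 rose, with DBP (−1.18) following BMAL2 below and BHLHE40 (1.33) above.

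The small RNA pathway, through which an siRNA itself acts, had 10 of 18 genes lower and 3 higher. AGO2, the slicing Argonaute protein, stood at 232, 201 and 208 CPM in siNT and 58.6, 60.2 and 62.4 CPM in siELMO1, with a Mock mean of 127 CPM, and fell by 1.82. LIN28B, which blocks maturation of let-7 microRNAs, was at 109.5, 114 and 113 CPM in siNT and 22.6, 24.3 and 26.0 CPM in siELMO1, with a Mock mean of 30.4 CPM, and fell by 2.21. DROSHA, which starts microRNA processing, rose by 1.21, and DICER1 (−0.13) did not pass, although it did without siELMO1 replicate 2 (−0.17), with only the 9 libraries at 0 h (−0.13) and with library totals (−0.15). Heat shock genes rose in 11 of 19 cases and fell in 5, by 0.93 at most in log2 fold change (HSPB1), and antigen presentation by MHC class I was even, 4 of 18 up, with HLA-E (0.86), and 5 down. Of 25 secreted factors linked to senescence 8 rose, with INHBA (1.86), and 9 fell, with LMNB1 (−1.35), a lamin whose loss is used as a senescence mark and which is also expressed with division.

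After 24 h of poly(I:C), in 6 other libraries, 732 genes were higher (4.83%) and 376 lower (2.48%) in siELMO1 than in siNT, 7.31% together. The study reports massive cell death in siNT cultures at this time and much less apoptosis in siELMO1 cultures. The 24 h libraries thus came from cultures that differed in survival, and the part of cell death in the 24 h values was not tested. Of the 1271 genes higher at 0 h, 413 (32.5%) were also higher at 24 h, and of the 943 lower at 0 h, 188 (19.9%) were also lower, while 4 and 10 had passed in the opposite direction. Their median log2 fold changes at 24 h were 0.77 and −0.48. Across genes the differences at both times correlated with Pearson's r of 0.462 and a Spearman rank correlation of 0.607, a description over genes, which are not independent replicates. The difference between the times was itself past 2-fold and an adjusted p of 0.05 for 6.2% of the genes tested, 3.83% upward and 2.37% downward. By the same limits the log2 fold change had moved downward by 24 h for 217 of the genes that had been higher and upward for 399 of those that had been lower. Such a move can pass 0, as for CXCL2 (−1.30 at 0 h and 1.48 at 24 h). These genes were chosen on the same 0 h values that enter the difference, so a move toward 0 was favoured in advance.

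At 24 h the median log2 fold change of the mitotic genes was −0.00491 and that of the replication genes −0.0199, and the summed mitotic level was 4818 to 5023 CPM in siNT and 4102 to 4873 CPM in siELMO1, ranges that overlapped. Set beside the 0 h sums, the siNT level was lower after poly(I:C) and the siELMO1 level higher, with the reported death of siNT cells between the times. Mock, in which the study reports much less death than in siNT, was lower as well. Its mitotic sum was 8978 to 9303 CPM at 0 h and 6209 to 6868 CPM at 24 h. The part of cell death in these sums was not tested. CDK1, for example, had a log2 fold change of −0.19 at 24 h, and the difference between times was 2.42 (adjusted p = 1.74e-11). The collagen chains had a median of 1.21 at 24 h and sums of 1177 to 1421 CPM in siNT and 4280 to 4377 CPM in siELMO1, without overlap, with COL5A1 at 4.13. Glutathione and NRF2 genes had a median of −0.22 at 24 h, protocadherins one of 0.97 and endothelial genes one of 0.48, and SLC7A11 had a log2 fold change of −2.56. The interferon-stimulated genes, with a median of −0.21 before poly(I:C), had one of 0.33 after it. Other groups with medians of opposite sign at the times included the mitochondrially encoded genes, at 0.73 before and −0.70 after, and the cytokine genes, at −0.17 before and 1.35 after.

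**Figure D4:**
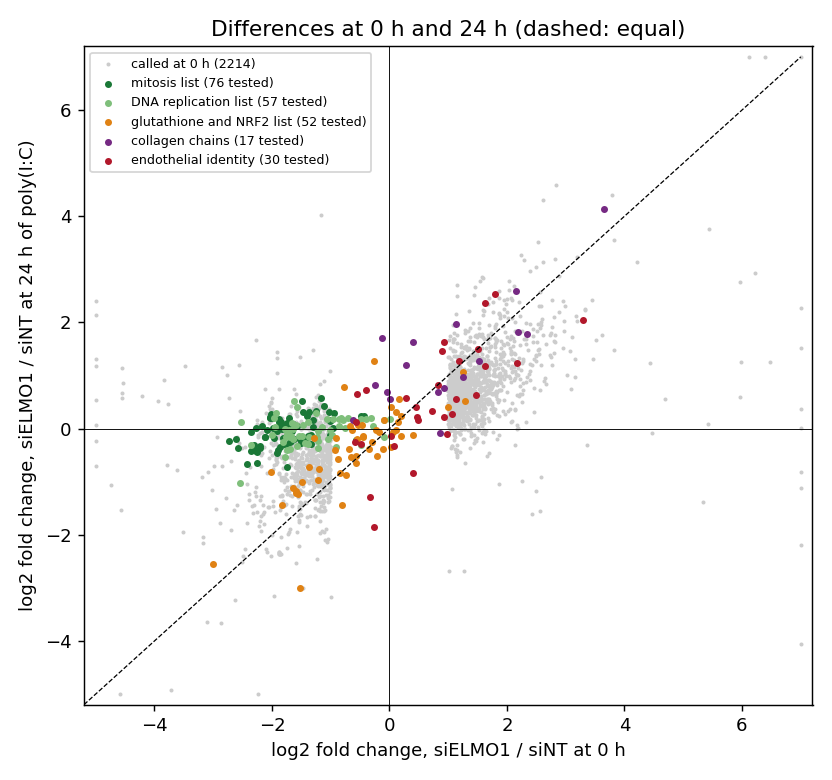
Log2 fold change of siELMO1 over siNT at 24 h of poly(I:C) (vertical axis) against that at 0 h (horizontal axis) for the 2214 genes called at 0 h (grey) and the members of 5 gene groups (coloured); values past −5 or 7 are drawn at the edge and the dashed line marks equal differences. Mitotic genes lie left of 0 at 0 h and around 0 at 24 h, and most collagen chains lie above 0 at both times.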

How the data were processed

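RNA of EA.hy926 cells was sequenced in 18 libraries, 3 for each of 6 conditions. Per the labels and methods, the authors aligned reads to GRCh38 with STAR and deposited estimated counts per gene and per transcript made with StringTie; the submitters' processing notes also name limma. The gene table held whole numbers, and whether counting used strand is not given in the sources used here. Totals ran from 40374756 to 73850946 counts per library and bear on counting error only. Samples were grouped by title.

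The 15167 genes tested had 100 or more counts summed over the libraries and reached 1 CPM in some library. The test was edgeR 4.0.16 (R 4.3.3) quasi-likelihood with TMM scaling, 1 mean per condition and Benjamini-Hochberg adjustment over all of these genes. All 18 libraries entered the same fit, from which the 0 h and 24 h comparisons were taken. Genes were called where the adjusted p was below 0.05 and the fold exceeded 2, and list members by adjusted p alone. The pooled biological coefficient of variation was 12.2%. A floor of 3 counts was used for genes near 0. The scripts were tested on simulated data. Alternatives were DESeq2 1.42.0, limma-voom 3.58.1, other scalings, filters and sets of libraries, and leaving out each library.

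Named genes were ELMO1, the 12 largest rises and falls in log2 fold change with a group mean of at least 5 CPM and no overlap, the 5 largest in CPM, and up to 4 members per list with at least 1 CPM; further members are named for their role. The comparison, its lists and further names were chosen with earlier results of these data known. Shares of ELMO1 transcripts came from the transcript counts. Promoters were matched by symbol. Some named genes are not reported here.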

Additional observations from a re-analysis of the deposited data

Results flagged for a closer look

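For 73 genes named in the text, the difference between siELMO1 and siNT at 24 h of poly(I:C) was unlike that at 0 h by more than 1 on the log2 scale, as tested by the interaction of treatment and time in edgeR at an adjusted p under 0.05. Values below are the log2 fold change at 24 h minus that at 0 h. Genes of the division, replication, repair and histone groups that were lower at 0 h had positive values, their difference having shrunk: ASF1B 2.64, CCNB2 1.74, CDC20 2.00, CDK1 2.42, CDKN2C 1.69, DSCC1 1.51, E2F1 1.36, E2F2 2.14, EXO1 2.07, FANCB 2.11, FANCD2 2.30, H2AX 1.44, H2AZ1 1.45, MCM10 2.04, MCM2 1.44, MCM5 1.11, MKI67 1.44, PBK 2.22, PCNA 1.08, PKMYT1 2.50, PLK1 1.75, POLQ 2.12, RAD51AP1 2.41, RFC3 1.88, SKP2 1.39 and UBE2C 2.29. Other genes lower at 0 h gave ABCG2 1.85, BIRC3 2.27, BMAL2 1.11, DLEU2 1.48, FZD4 1.05, GBP1 1.09, ID2 1.87, LFNG 1.21, LIFR 2.08, MT-RNR1 1.09, NUP107 1.27, OAS1 1.02, OAS3 1.86, OIP5 2.29, OSGIN1 1.19, RPL39L 1.32, S100A2 1.15, SMIM13 1.15, TNFAIP3 1.42, TUBB4B 1.71 and UNC5B 1.5. Genes higher at 0 h with a smaller difference at 24 h gave BHLHE40 −1.17, CLEC14A −1.26, FOS −1.30, FOSB −1.14, H2BC5 −1.68, INHBA −1.62, ITGB3 −1.53, MMP14 −1.03, MT-CO1 −1.11 and MT-ND1 −1.21, followed by MYH9 −1.11, NOG −1.83, PCDH1 −1.11, PCDH10 −1.34, PTGS2 −1.85, RASGRP3 −1.17, SH2D3C −1.05, TNFSF4 −1.84, TPM4 −1.23, WNT9A −1.34 and ZNF664 −1.74. The remainder lay apart from these: COL15A1 1.84, CXCL2 2.78, CXCL8 1.53, TNFSF15 1.27 and TXNIP 1.16. Among them TNFSF15 and TXNIP were higher at both times with a larger value at 24 h, CXCL2 had opposite signs at the 2 times, and CXCL8 and COL15A1 had not passed at 0 h. Some genes listed before them also had opposite signs, such as MT-RNR1 (−0.38 at 0 h and 0.72 at 24 h), TNFAIP3 (−0.98 and 0.43) and MT-CO1 (0.72 and −0.39). The 2 times also differ in the presence of poly(I:C) and in the cell death reported for siNT, so time, stimulus and cell loss cannot be told apart.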

How the results depend on the processing

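The counts of genes called kept to within 1.5 times of the main ones in each alternative run. Genes higher numbered 1204 (the 9 libraries at 0 h alone) to 1481 (edgeR's filterByExpr), with 1239 to 1336 when 1 library was left out, and genes lower 883 (the 6 libraries alone) to 1133 (filterByExpr), with 900 to 1044. DESeq2 gave 1308 and 947, limma-voom 1263 and 944. By adjusted p alone the ranges were 4327 to 4879 higher and 4348 to 4943 lower. Genes higher at both times numbered 364 to 453 and lower at both 176 to 204; the fits without 24 h libraries give no such value. The numbers of genes higher at 0 h that moved downward by 24 h, and lower at 0 h that moved upward, were highest without siELMO1 replicate 1, at 284 and 479. Without a filter 37970 genes were tested. Of 318 named genes that passed, 303 passed in every alternative, 15 were lost in at least 1 and 0 turned direction; the cause was not tested. Another scaling moved the median of all genes to between −0.0175 and 0.0139, so that its sign could turn. No list median turned sign, though that of the double-stranded RNA sensing list, −0.00233 in the main fit, became 0 under some scalings. Replicate numbers recur across the groups, but same-numbered libraries did not deviate together (r of −0.052, 0.0154 and 0.0469), so they were not treated as pairs; a replicate block gave 1270 genes higher and 948 lower.
Among genes that had not passed, leaving out 1 library gave values on both sides of 0 for COL15A1 (−0.30 to 0.27), COL16A1 (−0.11 to 0.033), COL18A1 (−0.13 to 0.082), MAFG (−0.017 to 0.12), MAFK (−0.0029 to 0.32), RAB4B (−0.015 to 0.48) and TIMELESS (−0.057 to 0.040). COL18A1 also turned with limma-voom (−0.0019), the 9 libraries at 0 h (−0.0013), library totals (−0.016), filterByExpr (−0.0042) and no filter (−0.019), and TIMELESS with library totals (−0.017) and no filter (−0.017).
The number of libraries limits most values, and genes at levels under 1 CPM rest on few counts.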

Other observations

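Gene families read from their symbols, chosen after their values were seen, filled in further parts of the 0 h difference. Of 82 ribosomal protein genes 66 fell and 4 rose, with a small median log2 fold change of −0.32, and the 2 largest changes were of the paralogs RPL39L (−1.82) and RPL26L1 (1.44). All 20 nucleoporin genes tested fell, with a median of −0.60, led by NUP107 of the nuclear pore scaffold (−1.28). Of 21 centromere protein genes 20 fell, several of which are also in the mitosis group. Of 19 tubulin genes 14 fell and 2 rose, with TUBB4B at 852, 879 and 849.6 CPM in siNT and 275, 242 and 238 CPM in siELMO1, a change of −1.77 (SE 0.07, adjusted p = 3.30e-13).

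Of 8 S100A calcium-binding proteins 7 fell and none rose, with a median of −0.92; S100A2 was at 24.7, 25.9 and 21 CPM in siNT and 6.15, 3.74 and 3.65 CPM in siELMO1, with no overlap, and changed by −2.38 (SE 0.17, adjusted p = 1.52e-09). All 3 metallothionein genes tested rose, MT1X by 1.62 and MT2A by 1.01. Zinc finger genes with a ZNF symbol rose in 170 of 356 cases and fell in 45, with a median of 0.32 beside 0.000932 over all genes. ZNF664 stood at 27.6, 25.7 and 28.3 CPM in siNT and 121, 132 and 135 CPM in siELMO1, a difference of 2.25, and at a Mock mean of 154 CPM.

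Some differences between siELMO1 and siNT came with a Mock level on the siELMO1 side and others with one on the siNT side. CCND1 averaged 999 CPM in Mock, 2413 in siNT and 518 in siELMO1, and SLC7A11 averaged 458, 483 and 60.1 CPM in the same order. TLR4 averaged 120.0 CPM in Mock, 351 in siNT and 211 in siELMO1. Mock received no siRNA, so these levels set the comparison beside cells given no siRNA, without separating the effect of either siRNA. CCND1, SLC7A11 and TLR4 were named by values from the same libraries, so nothing is read from the side on which Mock lies.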
